A study of Mus musculus with 7 samples.

Results

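Interleukin 1, interleukin 18 and interleukin 33 act through related receptors, and the genes described here are the receptors of these cytokines and their natural antagonists. The receptors bind a ligand with a specific chain and then recruit an accessory chain, and the paired intracellular domains signal through MYD88 to NF-kB. The pathway is held in check by soluble proteins that occupy the ligand or the receptor and by receptor-like proteins that interfere with signalling. In the lung, interleukin 1 drives neutrophil recruitment after bacterial challenge, and interleukin 18, together with interleukin 12, prompts natural killer cells and T cells to make interferon gamma. The set comprised 8 genes, picked by gene name with earlier results of these data already known, of 16476 genes in the table. They are Il1r1, Il1rap, Il1rl1, Il18r1, Il18rap and Sigirr among the receptors and Il1rn and Il18bp among the antagonists.

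RNA was sequenced from airspace cells of C57BL/6 mice, obtained by washing the lungs (bronchoalveolar lavage) 3 days after intratracheal LPS, a component of bacterial outer membranes. Antibodies were used to take neutrophils out of the washed cells before the RNA was extracted. The knockout group comprised 3 libraries with the genotype Netrin1loxp/loxp LysM Cre, in which the gene of the guidance protein netrin-1 is floxed, and the control group 4 libraries with the genotype LysM Cre. Both groups carry Cre in the lysozyme M locus, which is active in macrophages, monocytes and neutrophils and not in natural killer or T cells. Neither the age and sex of the mice nor whether the libraries came from separate mice was stated, so the p-values here rest on library-to-library spread, some of which may be technical.

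Libraries held between 9903284 and 13353733 reads. Ntn1, the targeted gene, had 1, 0 and 1 reads in the knockout libraries and 1, 4, 9 and 3 in the controls, too few to check the labels (2-sided exact permutation p = 0.0571, the smallest that 3 against 4 libraries allow). Lyz2, the gene of the locus that carries Cre, stood at 936, 1052 and 909.7 normalized counts in knockouts, at 770.1 and 721 in control replicates 2 and 3, and at 76927 and 118781 in control replicates 1 and 4. The labels do not give the number of Cre copies, so the controls may differ in genotype at this locus, which bears on every control mean below. Knockout replicate 1 stood apart in neutrophil transcripts, of which 6 of 12 listed markers rose. Their summed level was 69238 normalized counts there, 22235 and 23427 in the other knockouts and between 15004 and 17910 in controls. Transcripts of red blood cells were also highest in that library, but none of 6 listed erythroid genes was called. Macrophage markers were present in every library. The summed level of 12 resident alveolar macrophage markers ranged from 75598 to 123859 in knockouts and from 59794 to 94594 in controls. Chil3 made up most of that sum, at 65274 to 105895 in knockouts and 49994 to 78990 in controls. Of the 12 markers, 0 were called higher and 1, Fabp5, lower. Marker genes were counted in bulk RNA, where more cells of a type and more RNA per cell cannot be told apart.

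The interleukin 18 receptor and Sigirr were higher in knockout libraries, whereas no call was made for the receptors of interleukin 1 and interleukin 33 or for either antagonist. Il18r1 rose 1.62-fold, Il18rap 1.81-fold and Sigirr 3.01-fold, and in each of these the lowest knockout library lay above the highest control. By limma's moderated test with Benjamini-Hochberg adjustment over all 12963 genes tested, 3 of the 8 members were higher and 0 lower at an adjusted p under 0.05. Over all genes tested, 10.4% were higher and 11.3% lower by the same rule (21.7% in either direction), and the median log2 fold change was 0.30 for the members and 0.01 for all genes. The groups did not overlap for these 3 members, as for 17.4% of tested genes in the higher direction, 16.3% in the lower and 33.8% in either. All 8 members passed the minimum mean of 10 normalized counts.

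**Figure D1:**
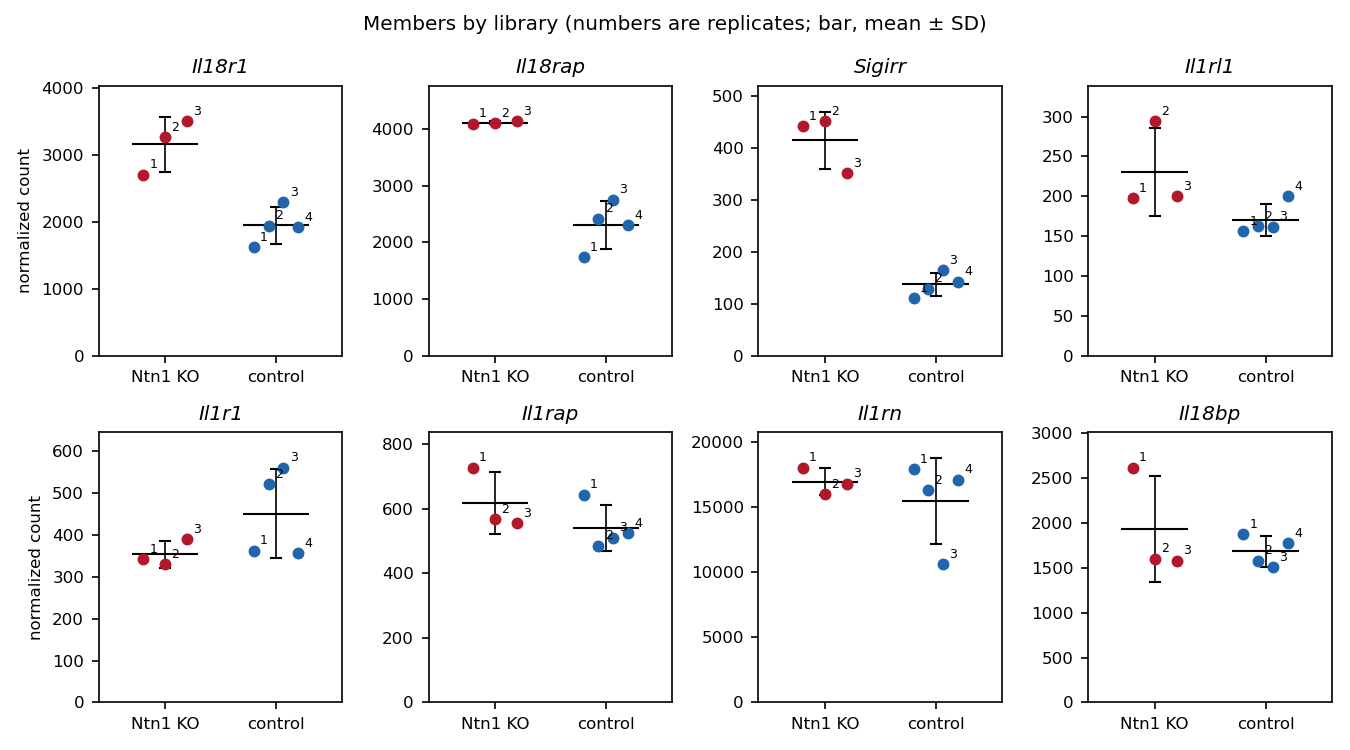
Normalized counts of the 8 members in each library, with knockouts in red and controls in blue; points are libraries labelled with their replicate number, horizontal lines are means and bars are SDs. Il18r1, Il18rap and Sigirr separate the groups completely, while the other 5 panels show libraries of the groups at shared levels.

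**Figure D2:**
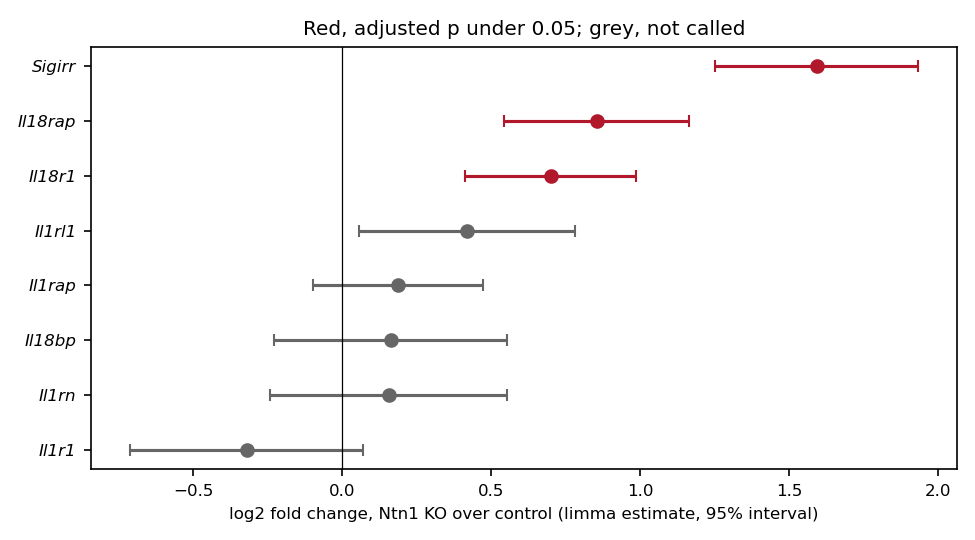
Log2 fold change of knockout over control for each member, with its 95% interval from limma; red marks an adjusted p under 0.05. The intervals of Sigirr, Il18rap and Il18r1 lie furthest from 0, and those of Il1rap, Il18bp, Il1rn and Il1r1 include 0.

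Il18r1 encodes the chain that binds interleukin 18. Its level was 2700.3, 3259 and 3498 normalized counts in the knockout libraries and 1624, 1941, 2289 and 1921 in the controls. All 3 knockouts were above all 4 controls, and the means were 3153 ± 409 (SD, n = 3) and 1944 ± 272 (SD, n = 4). The log2 fold change was 0.70 (SE 0.13, 95% interval 0.41 to 0.99, limma adjusted p = 0.00678).

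Il18rap encodes the accessory chain without which bound interleukin 18 does not signal. It stood at 4091, 4093 and 4133 normalized counts in knockouts and at 1734, 2418, 2753 and 2301 in controls. The knockout libraries were nearly level with one another, with an SD of 23.5 about a mean of 4106, while the controls had an SD of 424 about a mean of 2301. The log2 fold change was 0.85 (SE 0.14, 95% interval 0.54 to 1.16, limma adjusted p = 0.00402). Within a library, Il18r1 per Il18rap was 0.660, 0.796 and 0.846 in knockouts and 0.937, 0.803, 0.831 and 0.835 in controls. That ratio differed by -0.16 on the log2 scale, with overlapping groups (2-sided exact permutation p = 0.343, adjusted over 10 ratios 0.490).

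The sequences before the starts of these genes, adjacent on chromosome 1, are shown because both rose in the same libraries, from RefSeq on GRCm38.p6, plus strand, 5′ to 3′. That of Il18r1 is chr1:40465781-40465999, which ends 7 bases before the start it belongs to. It lies within the gene's annotated span, before the last of 3 listed starts, and was printed because that start alone held a match. That of Il18rap is chr1:40515112-40515361. Capitals mark the STAT-type palindrome TTCNNNGAA.
Il18r1: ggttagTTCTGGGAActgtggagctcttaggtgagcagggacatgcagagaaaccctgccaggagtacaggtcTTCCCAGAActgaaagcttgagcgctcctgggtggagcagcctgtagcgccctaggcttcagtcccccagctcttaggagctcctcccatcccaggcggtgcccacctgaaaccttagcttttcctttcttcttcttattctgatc
Il18rap: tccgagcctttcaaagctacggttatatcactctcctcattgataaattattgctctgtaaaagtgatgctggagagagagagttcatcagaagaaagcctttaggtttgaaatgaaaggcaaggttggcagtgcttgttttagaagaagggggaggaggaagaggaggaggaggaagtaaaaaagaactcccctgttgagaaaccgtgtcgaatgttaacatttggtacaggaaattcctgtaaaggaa
Windows of 250 bases before to 50 after a start were searched on both strands. The types sought were TTCNNNGAA, the interferon-stimulated type (GAAA, any 2 bases, GAAA), the T-box type AGGTGTGA and the kB type (GGGA, any 2 bases, TTCC). Windows were available for 7 of the 8 members, and Sigirr, which had none, was not searched. TTCNNNGAA had 2 matches at the Il18r1 start shown, and 8.3% of all 32851 windows hold it. The interferon-stimulated type had 1 match, at Il1rap, and 3.44% of windows hold it. No other window of the 7 members searched held any of the 4, and the T-box and kB types occur in 1.28% and 1.47% of windows. A match is a description of letters and not of binding.

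Natural killer cells carry the interleukin 18 receptor in the resting state, and markers of these cells moved in the same libraries. All 12 listed natural killer markers rose (Nkg7, Ncr1 and Gzma among them), and their summed level was between 51191 and 56305 normalized counts in knockouts and between 10798 and 17879 in controls. Per unit of that sum, the receptor transcripts were lower in knockouts. The sum was unweighted, with Gzma and Il2rb its most abundant genes. The log2 fold changes of its markers ran from 1.19 (Txk) to 2.47 (Gzma), so the size of the differences below depends on the markers summed. Il18r1 divided by the marker sum was 0.0528, 0.0626 and 0.0621 in knockouts and 0.150, 0.113, 0.128 and 0.125 in controls, a log2 difference of -1.12. Il18rap divided by it was 0.0799, 0.0786 and 0.0734 in knockouts and 0.161, 0.140, 0.154 and 0.150 in controls, a log2 difference of -0.97. Each ratio separated the groups completely, at the smallest 2-sided exact permutation p that these libraries allow, 0.0571 (adjusted over 10 ratios 0.114), so this test cannot bring them past 0.05. Of 12 listed T cell markers 2 rose, Trbc1 and Cd28, and the sums were 6143 to 8704 normalized counts in knockouts and 5818 to 7027 in controls. The part of these marker differences in the higher receptor levels was not tested.

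**Figure D3:**
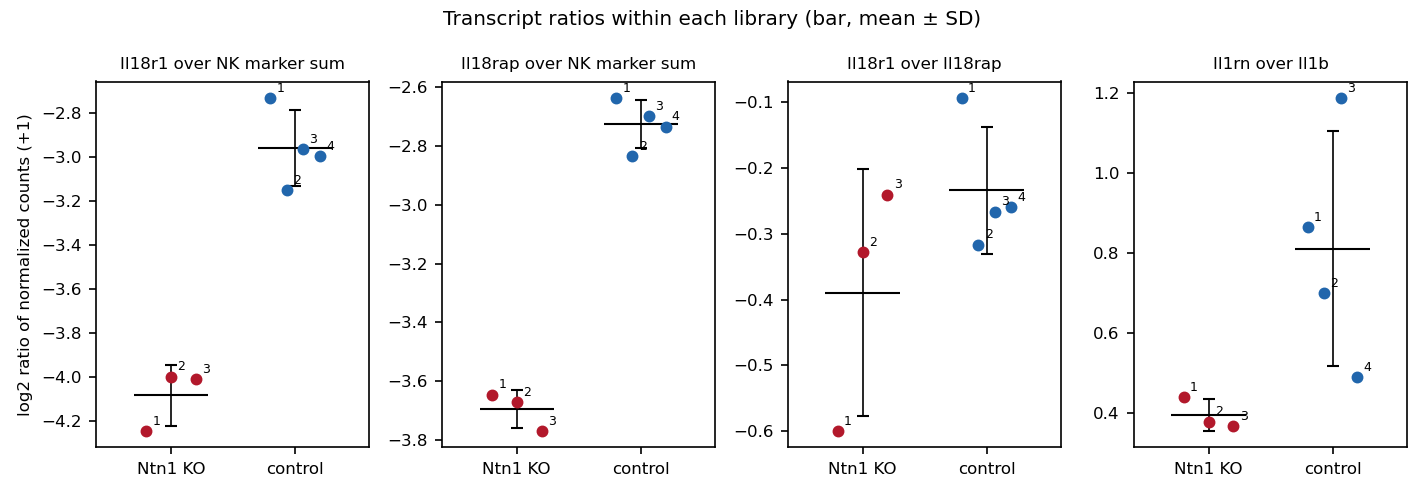
Log2 ratios of normalized counts (with 1 added to each) within every library, knockouts in red and controls in blue, with means and SDs; the vertical axes do not start at 0 and differ between panels. The interleukin 18 receptor transcripts per natural killer marker sum, and Il1rn per Il1b, lie lower in all 3 knockouts than in all 4 controls, while Il18r1 per Il18rap overlaps.

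Partners and readouts of interleukin 18 signalling were also higher. Of 9 listed genes, 7 rose and 0 fell (median log2 fold change 1.14), against 10.4% of all tested genes higher, and 7 rose with any single library left out. Il12rb2, a chain of the interleukin 12 receptor, was at 1182, 1345 and 1308 normalized counts in knockouts and at 539, 614, 482 and 637 in controls (log2 fold change 1.17, SE 0.11, limma adjusted p = 0.000553). Stat4, which carries the interleukin 12 signal, was 2.22-fold higher (limma adjusted p = 0.000656), and Tbx21, the T-box factor that works with it on the interferon gamma gene, 2.20-fold (limma adjusted p = 0.000772). Ifng itself was at 1640, 2132 and 2127 normalized counts in knockouts and at 513, 735, 726 and 897 in controls (log2 fold change 1.47, SE 0.18, limma adjusted p = 0.00136). Il12a and Il12b, the subunit genes of interleukin 12, were not called, with log2 fold changes of 0.42 and -0.0076 (limma adjusted p = 0.243 and 0.990). These receptor and factor genes are themselves active in natural killer cells, whose markers rose in the same libraries.

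Neither the ligand nor its neutralizing protein was called. Il18 was at 237, 520.2 and 399 normalized counts in knockouts and at 375, 308, 219 and 257 in controls (log2 fold change 0.37, SE 0.27, 95% interval -0.23 to 0.97, limma adjusted p = 0.348). That interval includes the value of Il18r1, and the difference between ligand and receptor was not tested. Without knockout replicate 1 the Il18 value was 0.68 (limma adjusted p = 0.0535), and without knockout replicate 2 it was 0.12 (limma adjusted p = 0.796). Il18bp encodes the secreted protein that binds interleukin 18 and keeps it from its receptor. Its level was 2618, 1605 and 1583 normalized counts in knockouts and 1877, 1580.3, 1509 and 1781 in controls. Knockout replicate 1, the library with the most neutrophil transcript, was the highest of all, and the other 2 knockouts lay within the control range. The log2 fold change of Il18bp was 0.16 (SE 0.17, 95% interval -0.23 to 0.55, limma adjusted p = 0.532), and it was -0.076 without knockout replicate 1 (limma adjusted p = 0.620). Il18bp per Il18 ranged from 3.08 to 11.0 in knockouts and from 4.997 to 6.90 in controls (2-sided exact permutation p = 0.629, adjusted over 10 ratios 0.629). Of 10 listed interferon gamma response genes, 3 rose, Irf8, Cxcl10 and Socs1, and 1 fell, Ciita (median log2 fold change 0.33). The Ciita call was absent without control replicate 1 or 4 or any single knockout replicate (limma adjusted p = 0.0823 to 0.0976).

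Sigirr showed the widest difference among the members. It encodes a receptor-like protein of the interleukin 1 receptor family that restrains signalling by interleukin 1 and Toll-like receptors, and it is known in epithelium and in natural killer and T cells. It had 441, 451 and 351 normalized counts in knockouts and 112, 129, 165 and 143 in controls. The lowest knockout was more than 2 times the highest control, and the means were 414 ± 55.4 (SD, n = 3) and 137 ± 22.7 (SD, n = 4). The log2 fold change was 1.59 (SE 0.15, 95% interval 1.25 to 1.93, limma adjusted p = 0.000652), and 49 of the 12963 genes tested had a smaller p. Of 12 listed epithelial markers 9 rose and 0 fell, with a summed level of 980 to 1449 normalized counts in knockouts and 509.8 to 623 in controls. The 3 not called were Krt8, Krt18 and Cdh1, with log2 fold changes of 0.18, 0.24 and 0.0075. The part of epithelial and of natural killer transcripts in the Sigirr result was not tested. Sigirr per natural killer marker sum, which overlapped between the groups, is given under other observations. Sigirr per Il1r1, a ratio of transcripts in bulk RNA and not of proteins, was 1.29, 1.37 and 0.898 in knockouts and 0.310, 0.249, 0.296 and 0.403 in controls, without overlap (log2 difference 1.91, 2-sided exact permutation p = 0.0571, adjusted over 10 ratios 0.114).

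Il1r1 encodes the signalling receptor of interleukin 1, and its value depended on which controls were used. It stood at 343, 329.8 and 390.3 normalized counts in knockouts. In controls it was 363 and 356 in replicates 1 and 4, within the knockout range, and 523 and 561 in replicates 2 and 3, above it. Over all libraries the log2 fold change was -0.32 (SE 0.17, 95% interval -0.71 to 0.071, limma adjusted p = 0.213). Without control replicates 1 and 4, the libraries with high Lyz2, it was -0.61 (limma adjusted p = 0.0253), and without control replicates 2 and 3 it was -0.024 (limma adjusted p = 0.904). The difference between the control replicates is not a comparison of the study, and its cause was not tested. Beside these values, of 12 markers of monocytes and recruited macrophages 7 fell and 2 rose. Their sums were 28746 to 40368 normalized counts in knockouts and 48440 to 73408 in controls. By library the control sums were 49955 and 59549 in replicates 1 and 4, and 48440 and 73408 in replicates 2 and 3.

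**Figure D4:**
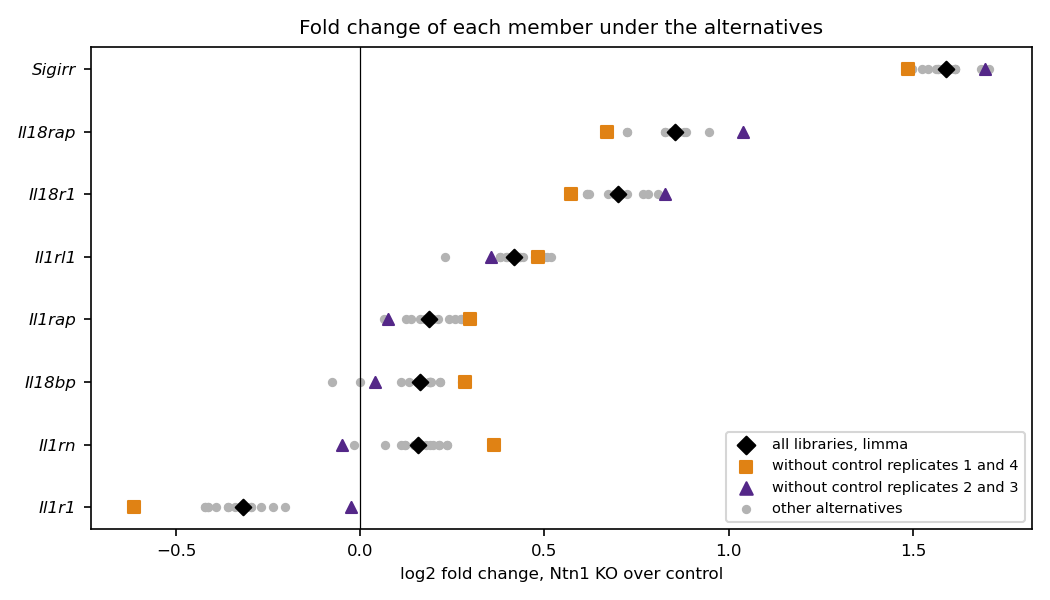
Log2 fold change of knockout over control for each member over all libraries (diamonds), without control replicates 1 and 4 (squares), without control replicates 2 and 3 (triangles) and under the other alternatives (grey points). Sigirr, Il18rap and Il18r1 stay above 0 throughout, and Il1r1 ranges from -0.61 to -0.024.

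Il1rap, the accessory chain shared by the receptors of interleukins 1, 33 and 36, had 727, 568 and 556 normalized counts in knockouts and 644, 485, 511 and 524 in controls. The groups overlapped, and the log2 fold change was 0.19 (SE 0.13, 95% interval -0.099 to 0.47, limma adjusted p = 0.314). It was 0.064 without knockout replicate 1 (limma adjusted p = 0.736). Il1r1 per Il1rap was 0.472, 0.581 and 0.702 in knockouts and 0.564, 1.08, 1.10 and 0.680 in controls (log2 difference -0.51, 2-sided exact permutation p = 0.286, adjusted over 10 ratios 0.476). The decoy receptor gene Il1r2, whose product binds interleukin 1 without signalling and which neutrophils express, had 6867 normalized counts in knockout replicate 1, 1759 and 1424 in the other knockouts, and 683, 915, 1419 and 574 in controls. Its highest value was thus in the library with the highest neutrophil markers. Il1r2 per Il1r1 was 19.98, 5.32 and 3.64 in knockouts and 1.88, 1.75, 2.53 and 1.61 in controls, without overlap (log2 difference 1.93, 2-sided exact permutation p = 0.0571, adjusted over 10 ratios 0.114). Its log2 fold change was 1.61 (SE 0.52, limma adjusted p = 0.0560) over all libraries and 0.90 without knockout replicate 1. Il1r2 was called by edgeR (adjusted p = 0.0368), by DESeq2 (adjusted p = 0.0267) and by limma-voom with library weights (adjusted p = 0.0425). In limma it was called without control replicate 3 (limma adjusted p = 0.0478) and without knockout replicate 3 (limma adjusted p = 0.0359).

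Il1rl1 encodes ST2, the receptor of interleukin 33, which occurs as a membrane and as a soluble form, and the table counts the gene as a whole. It had 198, 294 and 200.5 normalized counts in knockouts and 156, 162, 162 and 200.6 in controls. Knockout replicate 2 was the highest and the other 2 knockouts lay beside control replicate 4. The log2 fold change was 0.42 (SE 0.16, 95% interval 0.055 to 0.78), with an unadjusted limma p of 0.0284 and a limma adjusted p = 0.0933, so it was not called. Without knockout replicate 2 the value was 0.23 (limma adjusted p = 0.282). Mast cells, group 2 innate lymphoid cells and regulatory T cells are known carriers of ST2. Of 10 listed mast cell and basophil markers, 3 were among the genes counted, and Cpa3, Mcpt4 and Fcer1a were among those absent. Kit and Hdc, the 2 abundant enough to test, rose. The summed list level was 2742 to 4203 normalized counts in knockouts and 1289 to 1643 in controls. Hdc made up much of it, at 3050, 1949 and 1581 in knockouts and 652 to 1058 in controls. Its highest value was in knockout replicate 1, the library with the highest neutrophil markers. The mast cell gene Cma1, under the minimum for testing, had 9.13, 22.1 and 13.6 normalized counts in knockouts and 3.05, 2.94, 3.54 and 3.76 in controls, without overlap (2-sided exact permutation p = 0.0571). Of 10 listed markers of innate lymphoid cells and regulatory T cells, 6 were tested, and Il5, Il13 and Nmur1 were absent. Klrg1 and Gata3 rose, both in the libraries where natural killer markers rose, and Foxp3 was not called (limma adjusted p = 0.805). The sums overlapped, at 3246 to 4275 in knockouts and 3597 to 6176 in controls. Arg1 was their largest part, at 1041 to 2405 in knockouts and 2388 to 5036 in controls. The Gata3 call was absent without knockout replicate 2 (limma adjusted p = 0.0565). The part of these cells in the Il1rl1 values was not tested. Il1rl1 per Il1rap, its accessory chain, ranged from 0.273 to 0.519 in knockouts and from 0.244 to 0.384 in controls (log2 difference 0.23, 2-sided exact permutation p = 0.457, adjusted over 10 ratios 0.508).

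Il1rn encodes the interleukin 1 receptor antagonist, which occupies the receptor without signalling, and it was by far the most abundant member. It had 18059, 16007 and 16837 normalized counts in knockouts and 17944, 16345, 10638 and 17152 in controls. Control replicate 3 was low and the other 6 libraries lay close together, and the log2 fold change was 0.16 (SE 0.18, 95% interval -0.24 to 0.55, limma adjusted p = 0.557). The ligand gene Il1b had 13325, 12324 and 13069.9 normalized counts in knockouts and 9852, 10062, 4670.1 and 12218.5 in controls (log2 fold change 0.57, SE 0.28, limma adjusted p = 0.176), with control replicate 3 again the lowest. Without that library the Il1b value was 0.28 (limma adjusted p = 0.106). The transcript of the antagonist per transcript of Il1b was 1.36, 1.30 and 1.29 in knockouts and 1.82, 1.62, 2.28 and 1.40 in controls. All 3 knockouts lay below all 4 controls, and the log2 difference was -0.42 (exact permutation, 2-sided, p = 0.0571, adjusted over 10 ratios 0.114). Against Il1a, the other ligand of the same receptor, Il1rn did not separate the groups (log2 difference -0.12, 2-sided exact permutation p = 0.400, adjusted over 10 ratios 0.5).

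Per kilobase of exon, which allows genes to be compared, Il1rn led in both groups, at 3066 ± 187 normalized counts in knockouts and 2804 ± 599.7 in controls (SD, n = 3 and 4). In knockouts Il18r1 (654 ± 85.0), Il18bp (639.5 ± 195) and Il18rap (608 ± 3.48) followed without separating beyond their SDs. Next came Sigirr at 136 ± 18.2, then Il1r1 (55.7 ± 5.004) and Il1rap (54.3 ± 8.39), which did not separate, and Il1rl1 at 33.5 ± 7.96. In controls Il18bp (557 ± 56.6) was above Il18r1 (404 ± 56.4) and Il18rap (341 ± 62.8), which overlapped each other. Below them stood Il1r1 (70.8 ± 16.7), Il1rap (47.6 ± 6.20), Sigirr (45.1 ± 7.46), which overlapped Il1rap, and Il1rl1 (24.7 ± 2.95). Sigirr was thus above Il1r1 in knockouts and below it in controls.

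A number of the receptors lie together on mouse chromosome 1 (GRCm38), in the order Il1r2, Il1r1, Il1rl2, Il1rl1, Il18r1 and Il18rap, all on the plus strand. Il1r1 (ENSMUSG00000026072) covers chr1:40225080-40317257, Il1rl1 (ENSMUSG00000026069) chr1:40429570-40465415, Il18r1 (ENSMUSG00000026070) chr1:40465552-40500854 and Il18rap (ENSMUSG00000026068) chr1:40515362-40551705. The adjacent pair Il18r1 and Il18rap rose, and no other gene of the cluster was called higher. On one side Il1rl1 (0.42) and Il1r2 (1.61) had positive log2 fold changes that were not called, as given with those genes. On the other, Slc9a2 had one of 0.88 (SE 0.28, limma adjusted p = 0.0512), and its groups did not overlap. Il1rl2, a receptor of interleukin 36, had a log2 fold change of -0.25 (SE 0.15, limma adjusted p = 0.254), Slc9a4 beyond Il18rap one of 0.25 (SE 0.31, limma adjusted p = 0.603), and Map4k4 before Il1r2 fell by 0.32 (SE 0.07, limma adjusted p = 0.0130, and 0.0586 without knockout replicate 2). The other members lie at chr16:26581704-26730117 (Il1rap), chr7:141091175-141100572 (Sigirr), chr2:24336853-24351494 (Il1rn) and chr7:102014885-102018690 (Il18bp). Il1r1 overlaps Gm38070 on its own strand, at no more than 0.903 normalized counts in knockouts and 2.03 to 5.87 in controls, and Il1rap overlaps an antisense gene not analysed here. Numa1 on the opposite strand shares 80 bases with Il18bp, and its log2 fold change was 0.04 (limma adjusted p = 0.718) (whether counting used strand was not stated).

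**Figure D5:**
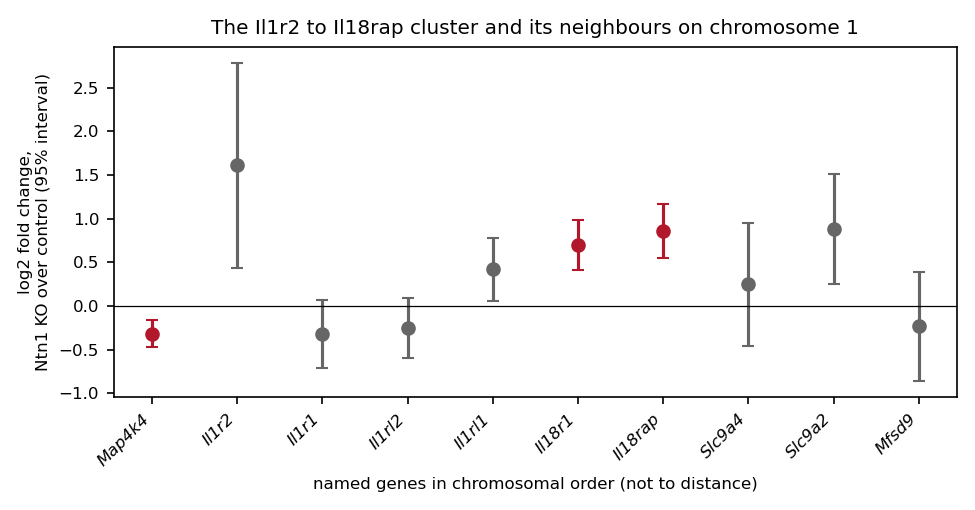
Log2 fold change of knockout over control, with 95% intervals from limma, for the named genes from Map4k4 to Mfsd9 in their order on chromosome 1 (spacing is not to distance); red marks an adjusted p under 0.05. Il18r1 and Il18rap are the called genes above 0, and Map4k4 is called below 0.

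Across the other pathway genes, 18 of 79 tested rose and 5 fell (median log2 fold change 0.25). Over all tested genes 10.4% were higher and 11.3% lower, the shares to set beside each count here and in the next paragraph. Among 5 tested ligand genes 1 rose, Il1f6, which encodes interleukin 36 alpha and had 26.4, 15.4 and 30.7 normalized counts in knockouts and 11.2, 10.8, 9.73 and 11.3 in controls (limma adjusted p = 0.0314). That call was absent without any single control replicate or without knockout replicate 1 or 3 (limma adjusted p = 0.0533 to 0.103). Of 8 tested genes that process the ligands, Nlrp1b, an inflammasome sensor, fell by 0.99 on the log2 scale (SE 0.17, limma adjusted p = 0.00569), while Nlrp3 and Casp1, of the main interleukin 1 beta inflammasome, had log2 fold changes of 0.07 and 0.05 (limma adjusted p = 0.799 and 0.656). Of 19 genes of receptor signalling, 3 rose and 2 fell (median log2 fold change -0.027). Myd88, the adaptor of these receptors, rose by 0.42 (SE 0.10, limma adjusted p = 0.0168) and Tab2, a scaffold of the TAK1 kinase, by 0.36 (SE 0.08, limma adjusted p = 0.0125). Neither was called without control replicates 1 and 4 (limma adjusted p = 0.0682 for Myd88 and 0.0586 for Tab2) or without control replicates 2 and 3 (limma adjusted p = 0.109 and 0.0767). Nfkb1 rose as well, a call absent without control replicate 4 (limma adjusted p = 0.0518), knockout replicate 2 (limma adjusted p = 0.100) or knockout replicate 3 (limma adjusted p = 0.0654).

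The falls in signalling were small. Traf6, the ubiquitin ligase downstream of MYD88, fell by 0.25 and Tollip, an inhibitory adaptor, by 0.23 on the log2 scale (limma adjusted p = 0.0290 and 0.0459). The Tollip call was held only without control replicate 3, and was absent in each of the other 6 fits with a library left out (limma adjusted p = 0.0814 to 0.112). The Traf6 call was likewise absent without control replicate 1, 2 or 4 or any knockout replicate (limma adjusted p up to 0.0911). Of 10 brakes on this signalling 2 rose, Otulin by 0.47 (limma adjusted p = 0.0118) and Nfkbib by 0.35, the second absent from the calls in all fits with a library left out other than that without control replicate 1 (limma adjusted p = 0.0610 to 0.110). Of 11 genes induced by interleukin 1, Csf3 rose (log2 fold change 1.21, SE 0.28, limma adjusted p = 0.0172) and 0 fell, and the median log2 fold change was 0.37. The calls of Csf3 (limma adjusted p = 0.109) and Otulin (limma adjusted p = 0.0662) were absent without control replicates 1 and 4. Il6 and Tnf of that list were not called, with log2 fold changes of 0.59 and -0.017 (limma adjusted p = 0.268 and 0.972). Of the genes downstream of interleukin 33, Gata3 alone was abundant enough to test, and Il33 was absent from the genes counted.

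The genes whose levels ran most nearly with each called member over the 7 libraries were found among 9866 others, by Pearson's r of log2 normalized counts, as a description in which the libraries also share the difference between groups. For Il18r1 they were Arap2 (r = 0.992), Plekha5 (r = 0.989) and Setbp1 (r = 0.988). For Il18rap they were Hhat (r = 0.996), Serpinb9b (r = 0.995) and Klri2 (r = 0.994), a lectin-like receptor gene of natural killer cells. For Sigirr they were Sept1 (r = 0.997), Gimap6 (r = 0.996) and Ifngr1 (r = 0.995).

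In the authors' deposited table the same 3 members had an adjusted p under 0.05, Sigirr with a log2 fold change of 1.40 (adjusted p = 5.26e-18), Il18rap with 0.76 (adjusted p = 5.79e-07) and Il18r1 with 0.64 (adjusted p = 1.87e-05). The other 5 members had adjusted p-values between 0.0854 and 0.671 in the authors' deposited table.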

How the data were processed

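Per the submitters' processing notes, the tools were DESeq2, HTSeq, STAR 2.5.3a and cutadapt 1.15, on GRCm38 (mm10). Annotation and strand setting were not stated. For each library the authors deposited 1 signal column, gene read counts scaled by a library size factor. Per the file headers, further columns hold the authors' log2 fold change, a test score and p-values, raw and adjusted. Division by the step of each library gave whole reads for 100% of values within 0.01, and a count of 0 allows up to 3 reads, or 2.65 to 3.76 normalized counts.

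Genes with a mean of at least 10 normalized counts were tested with limma 3.58.1 (R 4.3.3, eBayes with trend) on log2(normalized count + 1), which understates folds of low genes, with Benjamini-Hochberg adjustment and calls under 0.05. Ratios within a library were compared by exact permutation. On the recovered reads, edgeR 4.0.16 called 1365 genes higher and 1497 lower, and DESeq2 1.42.0 called 1414 and 1611. Other alternatives were other scalings, pseudocounts and filters, limma-voom, the replicate number as a block, and libraries left out. The test code was checked on simulated data, where 32.5% of 1.5-fold changes, 82.5% of 2-fold changes and 95% of 4-fold changes were recovered. Of the calls made there, 9.09% were false. Libraries within a group differed by a chi-square of 8.63 to 35.5 per gene, so none were copies.

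The members and lists were chosen with earlier results of these data known. Named genes were all members, Il1a, Il1b, Il18, Il33 and Il1r2, the called genes of each list (up to 3 a direction by smallest p) and the 3 nearest in pattern to each called member. Ifng, and the genes of lists given as not called, were added after their values were seen. Positions and exon lengths came from GENCODE M21, which matched 99.81% of identifiers. A protein table was not used here.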

Additional observations from a re-analysis of the deposited data

Results flagged for a closer look

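Il1rl1 in control replicate 4, at 200.6 normalized counts, lay far from the other 3 controls, which were between 156 and 162. It was the 1 value that stood out among 42 measures examined in the 4 control libraries, and chance flags about 1 in 20 such groups.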

How the results depend on the processing

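The calls of Il18r1, Il18rap and Sigirr held in all 22 alternatives. Their log2 fold changes ranged from 0.57 to 0.83 (adjusted p up to 0.0493), from 0.67 to 1.04 (adjusted p up to 0.0334) and from 1.49 to 1.71 (adjusted p up to 0.0210). Without control replicates 1 and 4, Il1r1 reached -0.61 and 1 member was called lower. Without control replicates 2 and 3, Il1rn changed sign to -0.050. With single libraries left out, Il1rn ranged from -0.016 to 0.24, Il18bp from -0.076 to 0.29, Il1r1 from -0.42 to -0.20, Il1rap from 0.064 to 0.27, Il1rl1 from 0.23 to 0.52, Il1b from 0.28 to 0.74, Il18 from 0.12 to 0.68, the log2 difference of Il18bp over Il18 from -0.76 to 0.16 and that of Il1rl1 over Il1rap from -0.011 to 0.45. The cause was not tested in any of these.

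Over all genes, 1352 were higher and 1461 lower. With single libraries left out these counts ranged from 695 to 1172 and from 820 to 1303. Knockout replicate 2 (695 higher and 820 lower in its absence), control replicate 2 (892 higher and 913 lower) and control replicate 4 (898 higher and 904 lower) each moved a count by more than 1.5 times. They were 624 and 567 without control replicates 1 and 4, and 622 and 620 without control replicates 2 and 3, fits with fewer samples. Of the other pathway genes, 18 rose and 5 fell. The counts were 11 and 1 without control replicates 1 and 4 and 11 and 2 without control replicates 2 and 3, and with single libraries left out 15 to 17 rose and 1 to 6 fell, the 1 without knockout replicate 2 and the 6 without control replicate 3.

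Knockouts and controls share replicate numbers in the titles, and other numbers in the column names, but same-numbered libraries did not deviate together (r of -0.229, -0.025 and -0.188 by title). With the title number as a replicate block, 424 genes were higher and 382 lower, and 10 and 0 of the pathway genes. With the column number as a replicate block they were 591 and 605, and 11 and 1. Members called stayed at 3 higher under either block. Control replicate 4 has no knockout of its title number, and control replicate 1 none of its column number. Under the block that library does not enter the contrast, so the log2 fold changes equal those with it left out. Read floors cover counting error only.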

Other observations

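Sigirr was also set against natural killer transcripts, a choice made after its values were seen. Sigirr per natural killer marker sum was 0.00864, 0.00867 and 0.00624 in knockouts and 0.0104, 0.00754, 0.00931 and 0.00939 in controls, and these ranges overlapped (log2 difference -0.23, 2-sided exact permutation p = 0.286). Sigirr per Il18r1 was 0.164, 0.139 and 0.100 in knockouts and 0.0694, 0.0670 and 0.0727 in control replicates 1 to 3, with 0.0749 in control replicate 4, without overlap (log2 difference 0.89, 2-sided exact permutation p = 0.0571, the smallest possible).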
